A study of Mus musculus with 12 samples.

Results

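Under PB1046, cardiomyocytes of mdx mice heterozygous for Utrn (mdx:Utrn+/-, with 1 of the 2 copies of the gene disrupted) were set against cardiomyocytes of mdx mice with both copies, 3 libraries against 3. The libraries were chosen by their labels alone: 3 of 3 with genotype mdx:Utrn+/- and 3 of 3 with genotype mdx among the animals given the high dose, 6 of the 12 libraries of the series. All 6 libraries came from dystrophin-deficient mdx mice. These were dosed with PB1046 on alternate days between weeks 4 and 12 of age, at the higher of the 2 doses in the protocol (1.5 mg/kg, the other being 0.75 mg/kg). Hearts were taken at week 14, 2 weeks after the last treatment week. The remaining 6 libraries are the same genotypes after saline, 3 each, and are used here as the untreated side of the same genotype contrast. Cells were isolated cardiomyocytes kept as frozen pellets, and poly-A RNA was sequenced. The labels give neither sex nor litter, do not say that each library is a separate mouse, and repeat the group in their batch field, so p-values measure the spread between these libraries. The comparison ran over 12798 of 18530 genes, those that reached 1 TPM in 3 or more of the 12 libraries.

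Dystrophin, the protein that mdx mice lack, links the actin cytoskeleton of a muscle fiber through a membrane glycoprotein complex to the matrix around it. Utrophin, the product of Utrn, is its autosomal homolog; it binds the same complex and can stand in for part of dystrophin's role, and mdx mice with reduced Utrn are used as a more severe model of Duchenne cardiomyopathy. PB1046 is a long-acting form of VIP, the vasoactive intestinal peptide, whose receptors raise cyclic AMP, which activates protein kinase A (PKA) and the transcription factor CREB. The series names this pathway and NF-kB, a transcription factor family that drives inflammatory genes, as its subjects.

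The unit throughout is scaled TPM, the deposited TPM (reads per transcript length, scaled to the library) divided by a trimmed-mean factor that evens out composition between libraries. Differences are log2(scaled TPM + 1), mdx:Utrn+/- minus mdx, so that a fold taken from scaled TPM is larger than the log2 difference for scarce genes. Reads recovered from the TPM values numbered 11468009 to 14182350 in the mdx libraries and 11050653 to 22546257 in the mdx:Utrn+/- libraries. Markers of the labelled cell type were abundant: all 12 cardiomyocyte markers were measured, their summed level was 93181 to 195121 scaled TPM, and Myl2, the ventricular myosin light chain, lay between 27505 and 57435 scaled TPM in the 6 libraries. Endothelial markers separated the 6 libraries without following genotype. The mean centred log2 level of 18 such markers was -0.92, 0.45 and 1.12 in mdx replicates 1 to 3 and -0.35, 0.85 and -0.17 in mdx:Utrn+/- replicates 1 to 3, and the first principal component placed mdx replicates 2 and 3 and mdx:Utrn+/- replicate 2 on 1 side. Rn45s, the ribosomal precursor entry, was 21289.5, 25860.8 and 11570.3 deposited TPM in mdx and 17798.3, 9965.1 and 1177.6 in mdx:Utrn+/-. Eif2s3y, a gene of the Y chromosome, lay between 32.9 and 93.1 scaled TPM over the 12 libraries, so each held RNA of male origin.

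Utrn was lower on average in mdx:Utrn+/- libraries, as their genotype label implies, but the groups overlapped. Utrn, on the minus strand at chr10:12382188-12861735 (mm10), stood at 6.52, 13.4 and 14.3 scaled TPM in mdx replicates 1 to 3 and at 5.30, 8.43 and 6.43 scaled TPM in mdx:Utrn+/- replicates 1 to 3. The library labelled mdx replicate 1 was below mdx:Utrn+/- replicate 2, and the other 2 mdx libraries were above all 3 heterozygous ones. The group means were 11.4 ± 4.26 and 6.72 ± 1.59 scaled TPM (SD, n = 3 each), 41.1% lower, or 50.6% lower in deposited TPM. In deposited TPM the 6 values were 6.11, 17.1 and 18.3 against 4.39, 9.92 and 6.21, on 370 to 1815 reads. The log2 difference was -0.64 (95% interval -1.27 to 0.00, limma adjusted p = 1.00), and a two-sided exact permutation test of the 6 libraries gave p = 0.200, where the smallest p that 20 splits allow is 0.1. Without mdx replicate 1 the difference was -0.96, and without mdx replicate 3 it was -0.45. Under saline the same contrast was -0.65, and the difference between both contrasts was 0.02 (95% interval -0.88 to 0.91).

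Dmd, the dystrophin gene, whose mdx allele still yields a transcript, was 4.06, 3.72 and 2.65 scaled TPM in mdx and 3.46, 3.33 and 3.09 in mdx:Utrn+/-. The groups overlapped entirely and the log2 difference of -0.05 had an interval from -0.71 to 0.61. Among dystrophin-complex genes as a whole, 12 of 21 tested were higher and 9 lower, with a median of 0.13 against 0.00 over all genes; it was -0.02 without mdx:Utrn+/- replicate 3 and 0.33 without mdx replicate 1. Sgce, which encodes epsilon-sarcoglycan, was 8.15, 7.69 and 12.7 scaled TPM in mdx and 7.48, 6.96 and 5.64 in mdx:Utrn+/- (log2 -0.43), so every heterozygous library lay below every mdx library. Pomt1, an O-mannosyltransferase that glycosylates dystroglycan, went the other way without overlap, at 6.03, 5.06 and 4.97 against 6.97, 6.16 and 7.12 (log2 0.29). Cav3, the caveolin of muscle membranes, overlapped between groups (log2 0.36). The plot of Utrn by library shows these values beside the saline groups.

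**Figure D1:**
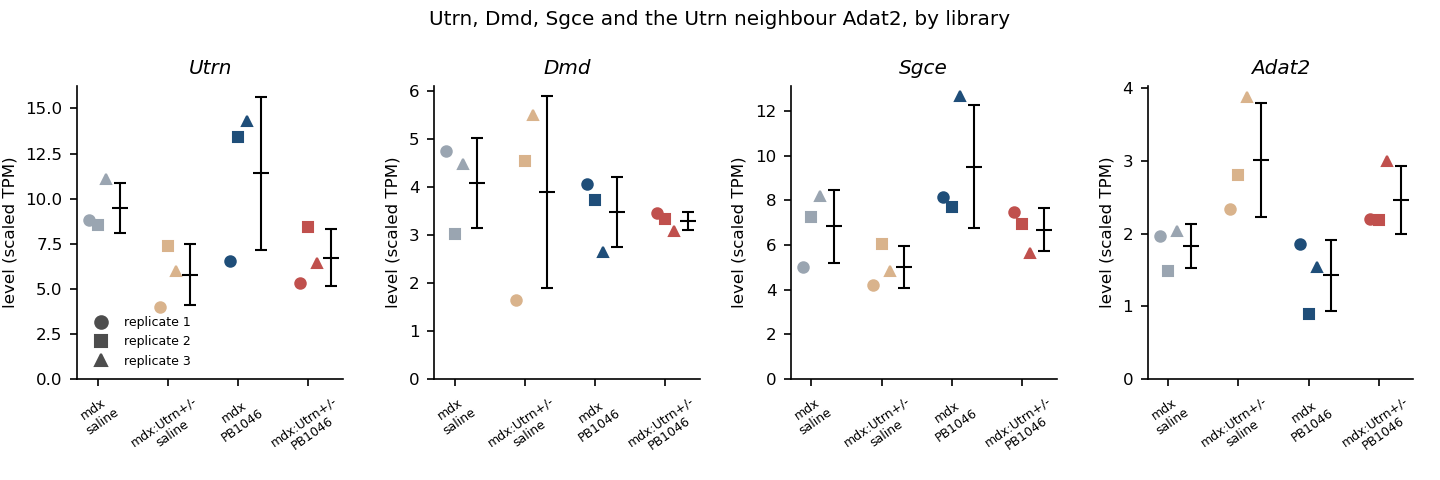
Levels in scaled TPM (y axis) of Utrn, Dmd, Sgce and Adat2 in each of the 12 libraries, grouped by genotype and treatment; symbols are libraries, and the bar beside each group is its mean ± SD (n = 3). For Utrn under PB1046, mdx replicate 1 at 6.52 lies under the highest mdx:Utrn+/- library at 8.43, while for Dmd the PB1046 groups overlap.

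Across all genes, no gene passed the threshold of adjusted p under 0.05 (0 of 12798, 0%, limma), and the smallest adjusted p was 1.00. Unadjusted p under 0.05 was reached by 214 genes (1.67% of those tested), 110 higher in mdx:Utrn+/- (0.860%) and 104 lower (0.813%), where evenly spread p-values would give 640. limma-voom on the recovered reads also called 0 genes and placed 227 genes at unadjusted p under 0.05. The 3 libraries of one genotype lay wholly above or below the 3 of the other for 744 genes (5.81%): 317 with mdx:Utrn+/- higher (2.48%) and 427 with it lower (3.34%). The balance over all genes was even, with 50.6% higher and 49.4% lower, a median log2 difference of 0.00 and a median size of 0.16 against a median standard error of 0.26. In simulated data of this design, noise was drawn independently for each gene and changes were placed in 200 genes that were not scarce. There 32% of genes with a log2 change of 1 and 88.5% of genes with a log2 change of 2 were recovered, so changes of about that first size were often missed. The libraries here share variation across genes, which the simulation did not hold, so these percentages need not carry over to them or to scarce genes. The number of genes at unadjusted p under 0.05 depended on single libraries: it was 1026 without mdx replicate 1, 505 without mdx:Utrn+/- replicate 2 and 106 without mdx replicate 3. Everything named below therefore describes these 6 libraries, and no single gene is called.

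**Figure D2:**
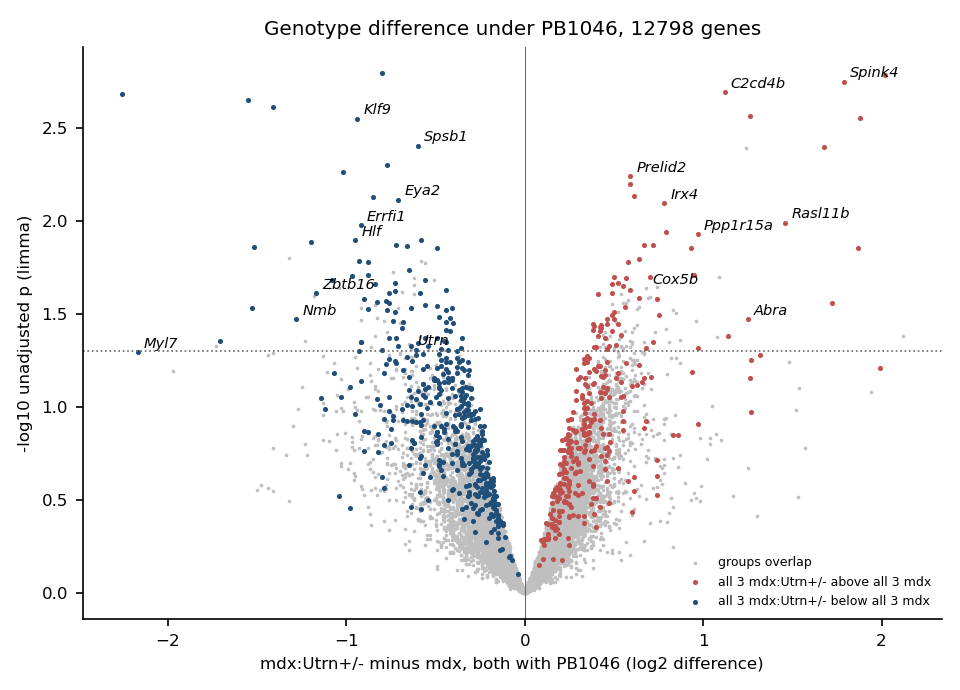
Each point is 1 of 12798 genes: the x axis is the log2 difference mdx:Utrn+/- minus mdx under PB1046 and the y axis is -log10 of limma's unadjusted p, with 0.05 as the dotted line. Colored points are the 744 genes whose groups of 3 do not overlap; among the genes with a printed name, Klf9 and Spsb1 have the smallest p on the lower side and Spink4 and C2cd4b on the higher side, and no gene passes after adjustment.

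Among the named genes of the lower side Klf9 and Spsb1 had the smallest p, and several others encode transcription factors. Klf9, a Krüppel-like factor induced by glucocorticoids, was 21.9, 35.6 and 28.7 scaled TPM in mdx and 13.9, 16.5 and 12.5 in mdx:Utrn+/- (log2 -0.94, 95% interval -1.49 to -0.39), a 2.01-fold difference of means. Spsb1, a substrate adaptor of a ubiquitin ligase, was 20.6, 18.4 and 15.7 against 12.3, 10.4 and 12.1 (log2 -0.60). In neither gene did the groups overlap. Midn, which encodes midnolin, a factor that delivers nuclear proteins to the proteasome, was 35.4, 32.5 and 37.9 against 26.1, 23.1 and 25.3 (log2 -0.49). Foxo3, a forkhead factor that drives atrophy and autophagy genes, was 7.80, 7.69 and 5.10 against 4.61, 4.31 and 2.47 (log2 -0.72). Crebl2, a bZIP protein related to CREB, was 8.09, 8.81 and 6.38 against 5.25, 5.42 and 3.91 (log2 -0.58). For these 3 factors too every heterozygous library was below every mdx library. On both sides the genes of smallest p were taken only from those with non-overlapping groups, so this trait adds no support.

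Errfi1, a feedback inhibitor of the EGF receptor family, was 17.5, 23.1 and 34.6 scaled TPM in mdx and 16.3, 12.2 and 9.27 in mdx:Utrn+/- (log2 -0.92); mdx replicate 1 and mdx:Utrn+/- replicate 1 nearly met. Hlf, a clock-controlled PAR bZIP factor, was 7.41, 4.52 and 14.5 against 3.57, 3.39 and 3.92 (log2 -0.95), with the heterozygous libraries tight and the mdx libraries spread. Zbtb16, another glucocorticoid-induced zinc finger factor, was 9.57, 4.27 and 7.43 against 3.82, 1.60 and 2.27 (log2 -1.17). Reck, a membrane-anchored inhibitor of matrix metalloproteinases, was 1.60, 1.35 and 2.97 against 0.881, 0.781 and 0.829 (log2 -0.66), on 22 to 135 reads. Scarcer still were Eya2, a transcriptional coactivator and phosphatase (log2 -0.71, 4 to 46 reads), Calhm2, of a calcium-regulated channel family (log2 -0.85, 8 to 76 reads), Il1rl2, the interleukin-36 receptor (log2 -0.88, 7 to 42 reads), and Mybphl, a myosin-binding protein of atrium and conduction tissue (log2 -0.93). All 4 had groups that did not overlap.

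Several of the largest lower differences rested on 1 or 2 mdx libraries. Nmb, which encodes neuromedin B, was 7.55, 3.38 and 24.4 scaled TPM in mdx and 2.56, 3.29 and 3.36 in mdx:Utrn+/- (log2 -1.28). Adh1, an alcohol dehydrogenase that also oxidizes retinol, was 10.2, 20.8 and 53.9 against 9.05, 12.9 and 6.47 (log2 -1.23). In both genes mdx replicate 3 stood far above the other 5 libraries. Slc10a6, a carrier of sulfated steroids, was 1.96, 8.50 and 8.86 against 2.26, 1.21 and 1.45 (log2 -1.32), and Maff, a small Maf factor, was 5.73, 26.3 and 28.0 against 5.91, 8.51 and 6.0 (log2 -1.18). For these 2 genes mdx replicate 1 lay within or below the heterozygous range, the same library in which Utrn was lowest among mdx.

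On the higher side, Irx4, Rrad, Abra, Ppp1r15a and Cyr61 were among the genes whose groups did not overlap. Irx4, the Iroquois factor that marks ventricular myocytes, was 20.3, 16.1 and 13.0 scaled TPM in mdx and 32.9, 24.9 and 28.4 in mdx:Utrn+/- (log2 0.78, 95% interval 0.25 to 1.32), 1.75-fold higher without overlap. Rrad, an RGK GTPase that restrains the L-type calcium channel, was 137, 116 and 109 against 235, 159 and 326 (log2 0.93). Abra, an actin-binding protein of striated muscle, was 63.4, 63.7 and 24.0 against 188, 76.6 and 93.9 (log2 1.25). The heterozygous libraries were above all mdx libraries for both, though mdx:Utrn+/- replicate 2 only narrowly so for Abra. Ppp1r15a, the phosphatase subunit GADD34 that reverses the translational block of the stress response, was 19.4, 21.8 and 27.3 against 61.5, 44.4 and 34.1 (log2 0.97). Cyr61, a secreted matricellular protein, was 117, 91.9 and 98.6 against 223, 148 and 131 (log2 0.67). In both genes mdx:Utrn+/- replicate 1 was the highest of the 6 libraries.

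Rasl11b, a small Ras-like GTPase, was 17.3, 13.4 and 10.9 scaled TPM in mdx and 70.3, 22.6 and 37.9 in mdx:Utrn+/- (log2 1.46), 3.14-fold higher by means, which mdx:Utrn+/- replicate 1 raised most. Prelid2, of a family of mitochondrial lipid transfer proteins, was 14.8, 16.0 and 13.2 against 21.6, 20.8 and 25.3 (log2 0.59), a small difference with little spread on either side. Scd4, the stearoyl-CoA desaturase of heart, was 12.2, 8.80 and 6.38 against 16.4, 18.8 and 28.5 (log2 1.14), and Epn3, an endocytic adaptor, was 12.2, 10.5 and 7.98 against 20.4, 13.0 and 16.0 (log2 0.64). None of these 4 genes had overlapping groups. C2cd4b, a C2 domain protein, was 0.302, 0.391 and 0.440 against 2.67, 1.04 and 2.60 (log2 1.12), on 3 to 6 reads in mdx and 14 to 46 in mdx:Utrn+/-, so counting error is large. Spink4, a Kazal-type protease inhibitor, had 0 to 3 reads in mdx and 7 to 15 in mdx:Utrn+/- (log2 1.79). Ccdc146, a coiled-coil protein, and Zscan18, a zinc finger protein, also had groups that did not overlap (log2 0.72 and 0.61). Grip2, a PDZ scaffold protein, was 11.4, 14.6 and 5.92 against 28.4, 24.3 and 12.2 (log2 0.96), with mdx replicate 2 inside the heterozygous range.

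**Figure D3:**
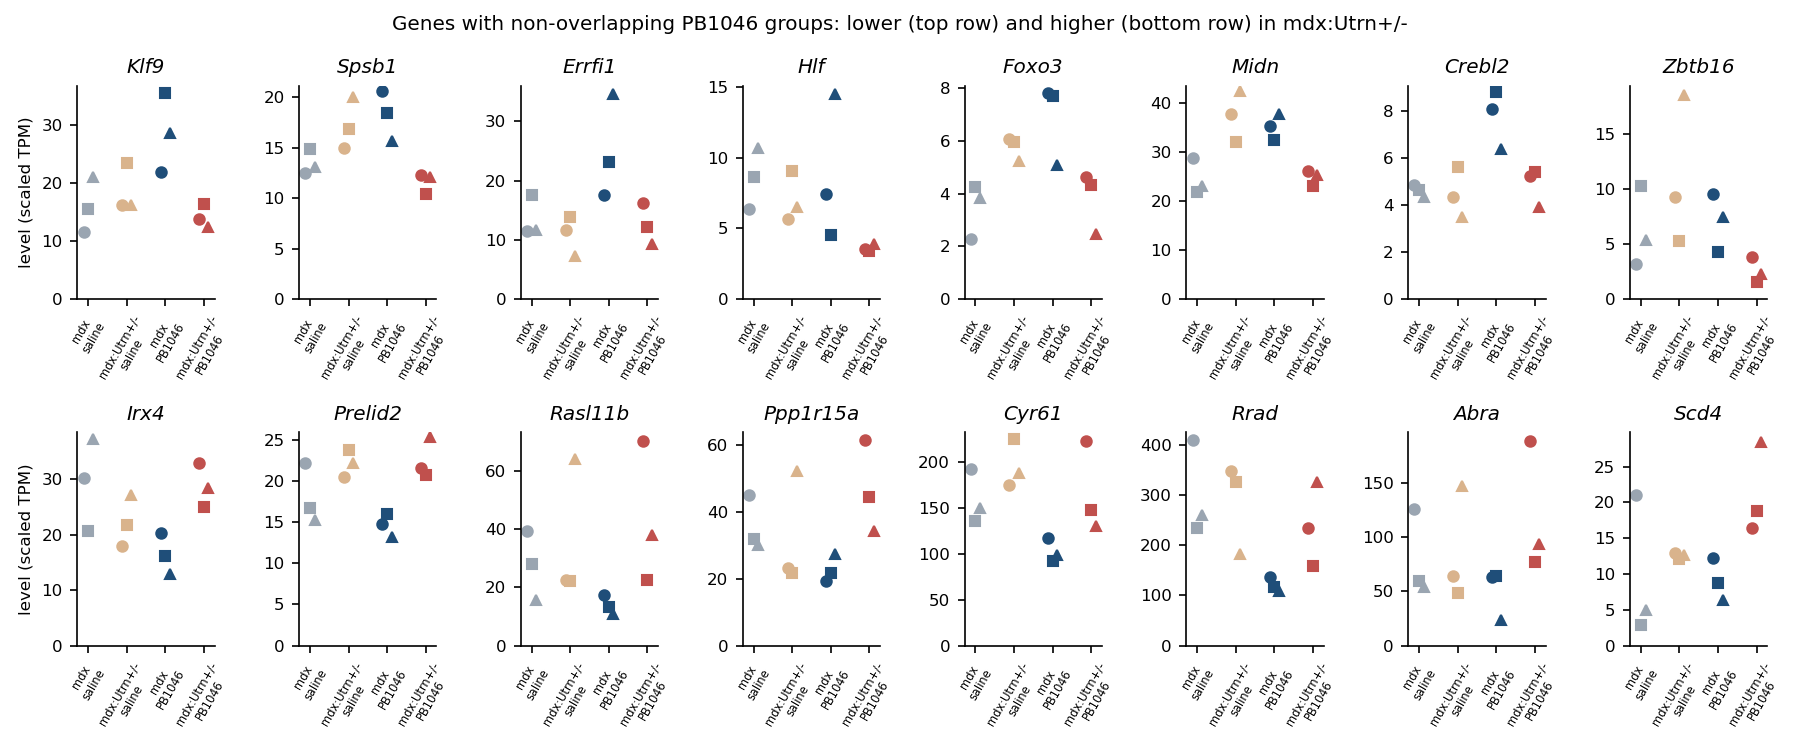
Levels in scaled TPM (y axes) of 16 genes in each library of the 4 groups; circles, squares and triangles are replicates 1, 2 and 3. In the top row all 3 mdx:Utrn+/- PB1046 libraries (red) lie below the 3 mdx PB1046 libraries (dark blue), as for Klf9 at 12.5 to 16.5 against 21.9 to 35.6, and in the bottom row they lie above, as for Irx4 at 24.9 to 32.9 against 13.0 to 20.3; the saline groups stand beside them.

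Since CREB is the factor at the end of the pathway that PB1046 addresses, the named genes were searched for its palindromic site. Of the CRE letters TGACGTCA, searched on both strands in the 250 bases before each RefSeq gene start (GRCm38.p6), 508 of 32851 windows held a match (1.55%). Of 93 named genes 71 had a window, some had several, and a gene counted if any of its windows matched. The share of windows is therefore no background for a count of genes, and enrichment was not tested. A match occurred in Mdh2, described further on, and in 5 genes described above that lay on both sides of the comparison: Ppp1r15a and Zscan18 were higher in mdx:Utrn+/- libraries, and Errfi1, Hlf and Maff were lower. They are shown to let a reader see that the same 8 letters sit at different distances from the start. Each line gives the 150 bases before a RefSeq start of the gene, 5′ to 3′ on the gene's strand, with the matched letters in capitals. No other motif was searched.
Ppp1r15a, chr7:45526269-45526418, minus strand: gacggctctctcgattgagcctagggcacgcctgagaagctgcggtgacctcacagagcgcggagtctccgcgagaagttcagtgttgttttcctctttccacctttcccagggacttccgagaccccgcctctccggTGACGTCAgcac
Zscan18, chr7:12803639-12803788, minus strand: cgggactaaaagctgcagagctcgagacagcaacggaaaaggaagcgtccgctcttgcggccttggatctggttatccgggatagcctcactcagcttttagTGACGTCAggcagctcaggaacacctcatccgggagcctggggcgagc
Errfi1, chr4:150854920-150855069, plus strand: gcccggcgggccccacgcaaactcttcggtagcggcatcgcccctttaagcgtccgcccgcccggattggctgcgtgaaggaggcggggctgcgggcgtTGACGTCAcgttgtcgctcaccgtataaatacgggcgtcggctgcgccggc
Hlf, chr11:90390918-90391067, minus strand: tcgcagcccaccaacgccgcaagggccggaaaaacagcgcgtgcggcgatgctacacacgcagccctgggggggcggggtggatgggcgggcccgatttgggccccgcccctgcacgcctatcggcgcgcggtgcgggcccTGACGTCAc
Maff, chr15:79347370-79347519, plus strand: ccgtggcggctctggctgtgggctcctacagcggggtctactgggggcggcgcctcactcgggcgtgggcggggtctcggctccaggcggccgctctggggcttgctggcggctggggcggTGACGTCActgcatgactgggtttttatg
A match describes letters in these windows only, and Zscan18, Errfi1 and Maff have other RefSeq starts whose windows held no match. The Zscan18 window lies upstream of the gene as placed with its levels (chr7:12768092-12775658, minus strand), so it belongs to a different start.

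No gene of VIP and cyclic AMP signaling passed the test between genotypes under PB1046, and most of those tested were lower. Of 10 listed genes of the VIP system (peptides of the family, the receptors that bind them and the RAMP accessory proteins), 5 were tested. Among these were Adcyap1r1, Ramp1, Ramp2 and Ramp3, so most of the listed peptides and receptors were not tested. RAMP genes made up most of the 5, so their median says little about the receptors. Of the 5, 1 was higher and 4 lower, with a median of -0.26. Without mdx replicate 3 the count was 4 higher and 1 lower (0.22), and with the endothelial score as a term the median was -0.12. Adcyap1r1, the receptor for PACAP that also binds VIP, was 7.92, 5.35 and 4.39 scaled TPM in mdx and 6.99, 3.21 and 1.75 in mdx:Utrn+/- (log2 -0.57, 95% interval -1.81 to 0.66), and the groups overlapped. Of 47 genes of the cAMP-PKA-CREB chain from G protein to coactivator, 16 were higher and 31 lower, with a median of -0.09 against 0.00 over all genes (-0.02 without mdx replicate 2). Prkacb, a catalytic subunit of PKA, was 16.9, 18.8 and 17.2 scaled TPM in mdx and 12.2, 13.0 and 16.7 in mdx:Utrn+/- (log2 -0.32), every heterozygous library below every mdx library. Akap12, which anchors PKA near the membrane, was 6.85, 29.2 and 47.7 against 9.83, 17.0 and 7.47 (log2 -0.93), with mdx replicate 1 the lowest of all 6. Adrb1, the cardiac beta-1 adrenergic receptor, was 6.94, 3.91 and 4.62 against 8.26, 5.76 and 10.9 (log2 0.59) and overlapped. Of 31 CREB targets and immediate early genes 13 were higher and 18 lower (median -0.09, but 0.07 without mdx replicate 3 and 0.06 without mdx:Utrn+/- replicate 3), and Rgs2, a CREB-responsive brake on G protein signaling, was 83.5, 54.0 and 57.2 against 44.1, 41.1 and 35.9 (log2 -0.65), without overlap.

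NF-kB genes leaned lower in mdx:Utrn+/- libraries. Among 31 NF-kB targets 26 were lower and 5 higher, with a median of -0.40, and among 35 pathway components 25 were lower and 10 higher, with a median of -0.15. Sele, the endothelial adhesion molecule E-selectin, was 1.38, 3.61 and 1.34 scaled TPM in mdx and 1.28, 0.849 and 0.361 in mdx:Utrn+/- (log2 -0.72). Bcl2l1, the survival gene for Bcl-xL, was 18, 38.4 and 38.4 against 19.5, 15.8 and 13.7 (log2 -0.84), and Vcam1, the vascular adhesion molecule, had a log2 difference of -0.67. Only Sele of these 3 was free of overlap, on 14 to 81 reads. Gadd45b, a stress-induced target that restrains JNK signaling, lay on the other side at 7.94, 15.7 and 12.5 against 31.8, 13.8 and 17.2 (log2 0.71). Nfkbia, the inhibitor that NF-kB itself induces, was 31.5, 81.5 and 118 against 36.4, 55.3 and 30.8 (log2 -0.75), again with mdx replicate 1 at the heterozygous level, while Myd88, the adaptor of Toll-like and interleukin-1 receptors, was below in every library at 16.7, 21.6 and 17.3 against 16.4, 16.0 and 10.3 (log2 -0.38). By library, the mean centred level of the targets was 0.18, 0.38 and 0.40 in mdx and 0.17, 0.01 and -0.48 in mdx:Utrn+/-. The median of the targets was -0.25 without mdx:Utrn+/- replicate 3, -0.72 without mdx replicate 1, -0.69 without mdx:Utrn+/- replicate 2 and -0.21 with log2 Rn45s as a term, and that of the components was -0.05 without mdx replicate 2 and -0.36 without mdx replicate 1. Under saline the median of the targets was 0.25, the opposite sign. Macrophage and fibroblast markers, given further on, were lower in the same libraries; their part in this list's median was not tested.

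Genes known to respond to glucocorticoids were lower as a list. Of 14 tested, 13 were lower and 1 higher, with a median of -0.39, and Klf9, Zbtb16 and Errfi1 are members. Tsc22d3, the leucine zipper protein GILZ, was 94.9, 111 and 213 scaled TPM in mdx and 102, 70.4 and 54.2 in mdx:Utrn+/- (log2 -0.83), with mdx replicate 1 under mdx:Utrn+/- replicate 1. The list level was 0.05, 0.59 and 0.48 in mdx and 0.37, -0.26 and -0.36 in mdx:Utrn+/-, so replicate 1 of each genotype sat in the range of the other. Without mdx replicate 1 the median was -0.86, without mdx:Utrn+/- replicate 1 it was -0.69, and without mdx:Utrn+/- replicate 3 it was -0.21. Among 19 clock genes 12 were lower and 7 higher (median -0.22, and -0.06 without mdx replicate 3): Cry1, a repressor of the clock, was 10.1, 5.60 and 7.92 against 6.12, 3.70 and 4.35 (log2 -0.62), and Ciart, a clock-controlled repressor, was 13.7, 6.05 and 29.1 against 7.63, 3.40 and 5.16 (log2 -1.25); both overlapped. The labels give no hour of collection, and its part was not tested.

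Nearly all fibrillar matrix genes were lower in mdx:Utrn+/- libraries. Of 47 collagens, matricellular proteins, matrix enzymes and TGF-beta family genes 45 were lower and 2 higher, with a median of -0.62, and 3 of them reached unadjusted p under 0.05, where 1.67% of all genes did. Timp3, a matrix-bound inhibitor of metalloproteinases, was 52.9, 68.6 and 152 scaled TPM in mdx and 34.6, 54.5 and 42.0 in mdx:Utrn+/- (log2 -0.92). Mmp3, stromelysin, was 8.42, 6.06 and 6.72 against 5.13, 3.19 and 1.88 (log2 -0.93), and Inhbb, the activin beta-B subunit, was 2.49, 2.99 and 3.07 against 2.09, 1.19 and 0.723 (log2 -0.76). Mmp3 and Inhbb did not overlap, and 5 of the 47 in all had every heterozygous library below, against 3.34% of all genes. The list median was -0.40 without mdx:Utrn+/- replicate 3. Thbs2, a matricellular thrombospondin, was 10.7, 6.82 and 10.3 against 8.78, 4.32 and 2.12 (log2 -0.89), and Col1a2, a chain of type I collagen, was 132, 88.7 and 86.9 against 105, 52.9 and 21.4 (log2 -1.01). For both, mdx:Utrn+/- replicate 3 was the lowest library and replicate 1 lay within the mdx range.

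Markers of fibroblasts, pericytes and smooth muscle, and macrophages were lower too, while those of other cell types were mixed. The few tested markers of lymphocytes (3, median -0.13) and mast cells (3, median -0.09) were also all lower. So were the 2 tested Schwann and neuronal markers (median -0.10). All 14 fibroblast markers were lower (median -0.70), among them the receptor gene Pdgfra (11.8, 7.33 and 9.54 against 9.03, 4.24 and 2.90 scaled TPM), the collagen receptor gene Ddr2 (5.68, 6.03 and 8.23 against 4.82, 4.23 and 3.01) and the proteoglycan gene Dcn (141, 98.4 and 372 against 97.6, 78.9 and 123). Of 13 pericyte and smooth muscle markers 12 were lower (median -0.44), with Tagln, a smooth muscle actin-binding protein, at 49.3, 47.2 and 60.7 against 48.1, 30.9 and 11.2. All 18 macrophage markers tested were lower (median -0.51). Cd163, the scavenger receptor of resident macrophages, was 3.19, 1.48 and 5.17 against 1.11, 0.836 and 1.19 (log2 -0.97), Mrc1, the mannose receptor, was 7.01, 4.37 and 14.4 against 4.47, 3.46 and 3.95, and Csf1r, the receptor that maintains macrophages, was 11.6, 7.91 and 23 against 5.45, 7.40 and 9.24. Cd163 was free of overlap, and mdx replicate 3 held the highest level of all 3 genes. Endothelial markers had 5 of 18 higher and 13 lower with a median of -0.09, but their direction turned on single libraries. Without mdx replicate 1 all 18 were lower (median -0.64), without mdx:Utrn+/- replicate 2 all 18 were lower (-0.45), and without mdx replicate 3 all 18 were higher (0.37). Neutrophil markers were higher in 3 of 4 tested (median 0.49, and 0.07 without mdx replicate 1). Skeletal muscle markers were higher in 5 of 6 (median 0.25), but Ckm is on this list and on the cardiomyocyte list. Of 9 mesothelial markers 4 were higher, 0 without mdx replicate 1 and 7 without mdx replicate 2.

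In bulk RNA fewer cells of a type and less RNA per cell cannot be told apart, and these lists share members and libraries. The summed level of the 18 macrophage markers was 319 to 909.6 scaled TPM in mdx and 266 to 568 in mdx:Utrn+/-, that of the 14 fibroblast markers 568 to 1527 and 442 to 667, and no marker of either list was at 0 in any of the 6 libraries. Leaving out mdx replicate 3 brought the macrophage median to -0.15 and the fibroblast median to -0.36, with 4 of 18 and 2 of 14 higher, while the matrix median was -0.49 with 44 of 47 lower; the pericyte and smooth muscle median was then -0.21 with 9 of 13 lower. With log2 Rn45s as a term the matrix median was -0.27 with 43 of 47 lower. Antigen presentation genes, with the class II gene H2-Ab1 at 43.6, 45.6 and 166 against 32.7, 44.7 and 38.7 scaled TPM, were lower in 15 of 15 (median -0.32), but 9 of 15 were higher without mdx replicate 3. Of 20 cell cycle genes 18 were lower (median -0.28, and -0.18 without mdx replicate 3).

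Nuclear genes of mitochondrial energy metabolism leaned higher in mdx:Utrn+/- libraries. All 44 oxidative phosphorylation genes tested were higher, with a median of 0.47 against 0.00 over all genes, and 2 reached unadjusted p under 0.05, where 1.67% of all genes did. Without mdx replicate 3 the median was 0.31 with 39 of 44 higher. The 12 cardiomyocyte markers moved in the same direction, with 11 higher and 1 lower (median 0.31). Their mean centred level was 0.28, -0.42 and -0.62 in mdx and 0.29, -0.27 and 0.17 in mdx:Utrn+/-. How much the share of cardiomyocyte RNA in each library entered the energy, sarcomere and proteasome medians was not tested. Cox5b, which encodes a nuclear subunit of respiratory complex IV, was 3628, 2246 and 2188 scaled TPM in mdx and 5333, 3238 and 4290.2 in mdx:Utrn+/- (log2 0.68, 95% interval 0.11 to 1.26), and Atp5o, the subunit of ATP synthase that confers oligomycin sensitivity, was 3871, 2639 and 2299 against 5629, 3539.8 and 4162 (log2 0.61). In both, mdx replicate 1 lay above mdx:Utrn+/- replicate 2, and 0 of the 44 genes had groups free of overlap, against 5.81% of all genes. Cox6c and Cox7a1, further subunits of the same complex, had log2 differences of 0.61 and 0.62. All 20 tricarboxylic acid cycle genes were higher (median 0.23), among them Mdh2, the mitochondrial malate dehydrogenase, at 2078, 1300.3 and 1161 against 2088, 1489 and 2536. So were 30 of 34 fatty acid oxidation genes (median 0.22), including Cpt1b, which admits long-chain fatty acids to mitochondria (471, 309 and 244 against 562, 389 and 432), and 21 of 24 glycolysis genes (median 0.25). These 3 lists depended on single libraries. Without mdx:Utrn+/- replicate 3 the tricarboxylic acid cycle had 10 of 20 higher (median 0.00) and fatty acid oxidation 25 of 34 (0.05), and without mdx replicate 3 they had 13 of 20 (0.03) and 23 of 34 (0.09). The glycolysis median was 0.12 without mdx:Utrn+/- replicate 1. Without mdx replicate 1 the medians were 0.47, 0.46 and 0.49. With log2 Rn45s as a term the tricarboxylic acid cycle had 14 of 20 higher (0.05).

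Contractile and proteostasis genes followed. Of 24 sarcomere genes 20 were higher (median 0.31): Tnni3, cardiac troponin I, was 16307, 10203 and 9225 scaled TPM in mdx and 21642, 13897 and 15773 in mdx:Utrn+/-, and Actn2, the alpha-actinin of the Z-disc, was 1266, 753 and 722 against 1485, 988 and 1368. Of 26 proteasome genes 25 were higher (median 0.26). Cryab, a small chaperone of muscle, was 2643, 1682 and 1298 against 3001, 1945 and 3516, and Sod1, the cytosolic superoxide dismutase, was 924, 579 and 615 against 1375, 795 and 988. In each of these 4 genes mdx replicate 1 was within the heterozygous range and mdx replicates 2 and 3 were below mdx:Utrn+/- replicates 1 and 3. Without mdx replicate 3 the sarcomere had 17 of 24 higher (0.10) and the proteasome 19 of 26 (0.15), and without mdx:Utrn+/- replicate 3 the proteasome had 21 of 26 (0.11). Calcium handling genes were mixed, with 20 of 30 higher and a median of 0.08.

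Cardiac stress genes, the fetal and load-responsive program, were higher in 15 of 18 (median 0.48, but 0.26 without mdx replicate 3, 0.27 without mdx:Utrn+/- replicate 3 and 0.23 with log2 Rn45s as a term). Hspb1, the small heat shock protein HSP27, was 349.6, 422 and 265 scaled TPM in mdx and 618, 469 and 561 in mdx:Utrn+/- (log2 0.68), and it did not overlap. Ddit3, a factor of the unfolded protein response (CHOP) that is not on this list, was 54.5, 54.0 and 52.6 against 162, 68.6 and 57.8 (log2 0.67), also without overlap, though mdx:Utrn+/- replicate 3 was only just above. Against the direction of the stress list, Ddit4, an inhibitor of mTORC1, was 53.1, 123 and 79.8 against 45.5, 37.6 and 31.5 (log2 -1.07). Atrial markers were split, with 2 of 6 tested higher and 4 lower (median -1.08). Nppa, which encodes atrial natriuretic peptide and is also a load-responsive gene of ventricle, was 1314, 427 and 1132 against 2419, 574 and 2446 (log2 0.81, 95% interval -1.09 to 2.70) and overlapped. The summed level of the list, Nppa included, was 561 to 1392 scaled TPM in mdx and 655 to 2495 in mdx:Utrn+/-. Stard10, a lipid transfer protein, had a log2 difference of 0.10. On the lower side, Myl7, the atrial myosin regulatory light chain, was 17.7, 44.7 and 74.9 against 6.92, 15.8 and 4.32 (log2 -2.17, 95% interval -4.35 to 0.00), Myl4, the atrial essential light chain, had a log2 difference of -1.41 and Sln, sarcolipin, of -1.97. Under saline Myl7 had a log2 difference of -2.15, where its 3 mdx:Utrn+/- libraries ran from 0.857 to 63.3; how much atrial tissue entered each preparation was not tested.

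**Figure D4:**
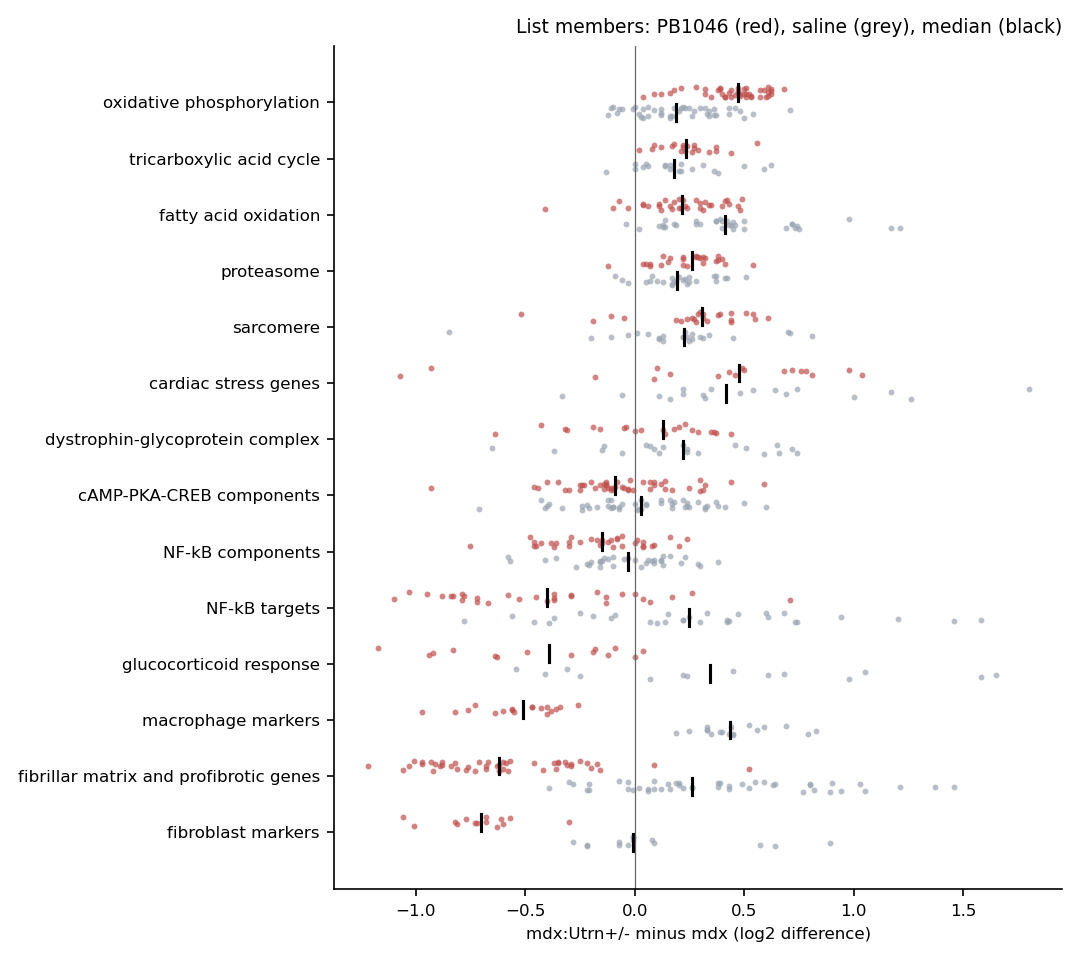
Each point is a gene of the list named at the left; the x axis is the log2 difference mdx:Utrn+/- minus mdx, red under PB1046 and grey under saline, and black lines are medians. Under PB1046 all 44 oxidative phosphorylation genes lie right of 0 with a median of 0.47 and 45 of 47 fibrillar matrix genes lie left of 0 with a median of -0.62, against saline medians of 0.19 and 0.26.

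Some of these list medians moved with other values of the libraries, and others changed little. The mean centred level of oxidative phosphorylation genes was 0.16, -0.51 and -0.65 in mdx and 0.31, -0.29 and 0.30 in mdx:Utrn+/-, low in the 3 libraries with the highest endothelial marker levels. With the endothelial score as a term the median was 0.44 with 43 of 44 higher. After trends over gene length and abundance were taken out of each library the median was 0.11 with 34 of 44 higher, and without scaling factors it was 0.23, where the median of all genes was -0.20. The same removal of trends left medians of 0.08 for the tricarboxylic acid cycle, 0.06 for fatty acid oxidation, 0.09 for glycolysis, 0.05 for the proteasome and 0.09 for the sarcomere, and -0.57 for the fibrillar matrix. The matrix level was 0.43, 0.15 and 0.46 in mdx and 0.25, -0.26 and -0.72 in mdx:Utrn+/-, and the macrophage level was 0.07, -0.28 and 0.94 against -0.61, -0.43 and 0.15.

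**Figure D5:**
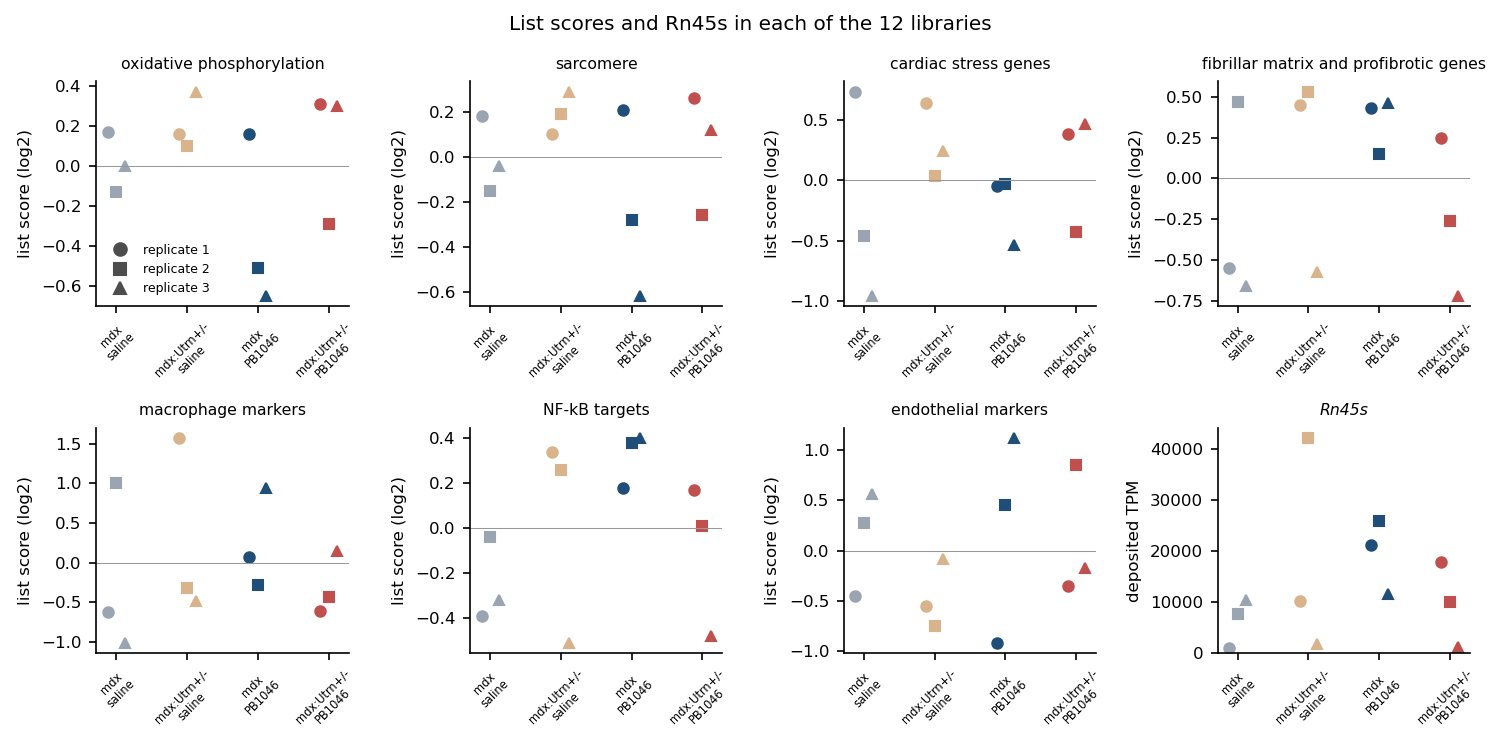
The y axes give the mean centred log2 level of 7 gene lists, and the deposited TPM of Rn45s, in each library of the 4 groups; circles, squares and triangles are replicates 1, 2 and 3. Oxidative phosphorylation is lowest in mdx PB1046 replicates 2 and 3 (-0.51 and -0.65), the matrix level is lowest in mdx:Utrn+/- PB1046 replicate 3 (-0.72), and the endothelial level is highest in mdx PB1046 replicate 3 (1.12).

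Genes that act on Utrn itself, and its neighbours on the chromosome, were looked at next. Of 18 regulators of Utrn transcription tested (ETS and Sp factors, PGC-1 and calcineurin-NFAT genes) 5 were higher and 13 lower, with a median of -0.12. Erf, an ETS-family repressor, was 4.48, 8.72 and 8.93 scaled TPM in mdx and 4.15, 5.39 and 3.38 in mdx:Utrn+/- (log2 -0.62), with mdx replicate 1 again inside the heterozygous range. Ppp3ca, a catalytic subunit of calcineurin, was 29.9, 29.9 and 33.7 against 21.4, 27.4 and 26.8 (log2 -0.30), without overlap. Within 10 Mb of Utrn on chromosome 10, 66 of 101 genes were tested: 34 were higher and 32 lower, with a median of 0.02. Adat2, a tRNA adenosine deaminase subunit at chr10:13552907-13563376, was 1.85, 0.894 and 1.54 against 2.20, 2.18 and 3.00 (log2 0.52), on 10 to 58 reads. Mthfd1l, a mitochondrial folate enzyme at chr10:3973075-4167081, was 0.464, 0.780 and 1.80 against 0.287, 0.183 and 0.277 (log2 -0.64), on 7 to 80 reads.

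The saline libraries, none of which enters the PB1046 contrast, gave the same genotype contrast a second time. There too no gene passed (0%, smallest adjusted p 0.412), 534 genes reached unadjusted p under 0.05 (4.17%; 332 higher, 2.59%, and 202 lower, 1.58%). Groups did not overlap for 1252 genes (9.78%), 753 with mdx:Utrn+/- higher (5.88%) and 499 with it lower (3.90%), and 54.9% of all genes were higher against 45.1% lower. The direction was the same under saline and PB1046 for 56.7% of genes, and the Pearson r of both log2 differences across genes was 0.05. Non-overlapping groups in the same direction under both occurred for 33 genes (0.258%) and in opposite directions for 27 genes (0.211%). Adat2 was among the 33, with a log2 difference of 0.49 under saline beside 0.52 under PB1046. All 18 macrophage markers, lower under PB1046, were higher under saline (median 0.44), and the fibrillar matrix had 37 of 47 higher there (median 0.26). Both list levels overlapped between the saline groups. The macrophage level was -0.62, 1.01 and -1.01 in mdx and 1.57, -0.32 and -0.48 in mdx:Utrn+/-, with only mdx:Utrn+/- replicate 1 above the mdx range. The matrix level was -0.55, 0.47 and -0.66 against 0.45, 0.53 and -0.57. Glucocorticoid-responsive genes, also lower under PB1046, had 10 of 14 higher under saline (median 0.34). Oxidative phosphorylation (36 of 44 higher, median 0.19), the sarcomere (20 of 24, median 0.23) and cardiac stress genes (16 of 18, median 0.42) had the same sign under both. Endothelial markers, 13 of 18 lower under PB1046 (median -0.09), were lower in all 18 under saline (median -0.54). Their saline level was -0.45, 0.27 and 0.56 in mdx and -0.55, -0.75 and -0.08 in mdx:Utrn+/-, and the groups overlapped.

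Whether the genotype difference under PB1046 differed from that under saline was tested gene by gene. No gene passed (0%, smallest adjusted p 1.00, limma) and 295 reached unadjusted p under 0.05 (2.31%), 130 with the PB1046 contrast above the saline contrast (1.02%) and 165 with it below (1.29%). Midn was among them: under saline it was 28.8, 21.9 and 23.2 scaled TPM in mdx and 37.9, 32.1 and 42.5 in mdx:Utrn+/- (log2 0.59), the reverse of the PB1046 order, without overlap on either side. Foxo3 (log2 0.63 under saline, -0.72 under PB1046) and Spsb1 (0.33 and -0.60) had the same form. Tia1, an RNA-binding protein of stress granules, was the reverse case: it was 19.4, 22.7 and 31.5 against 8.36, 11.7 and 19.0 under saline (log2 -0.90) and 12.5, 15.3 and 9.63 against 18.4, 15.6 and 17.2 under PB1046 (log2 0.44). Cebpb, a bZIP factor of inflammation and growth, was 20.3, 25.7 and 14.7 against 62.8, 29.6 and 48.6 under saline (log2 1.15) and overlapped under PB1046 (log2 -0.48). Hspa12a, an atypical HSP70 protein, had a log2 difference of -0.96 under saline and 0.31 under PB1046, and Grip2 had -1.20 and 0.96. The other named genes of this test were Zscan18 (-0.38 and 0.61), Eif2s3y, a translation initiation factor gene of the Y chromosome (-0.87 and 0.22), and Usp17la, a deubiquitinase with near-identical copies whose reads may be shared (1.30 and -0.52).

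The authors' deposited table holds its own version of the PB1046 contrast. With its sign turned to mdx:Utrn+/- minus mdx, the authors' deposited table gives Utrn a log2 difference of -0.76 (p-value 0.0209), Klf9 -1.0, Rasl11b 1.65 and C2cd4b 2.42. The smallest p-value in the authors' deposited table was 0.000243, for C2cd4b, the smallest false discovery rate was 1.00, and 501 genes had a p-value under 0.05.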

How the data were processed

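Poly-A RNA libraries of isolated mouse cardiomyocytes were sequenced, 3 in each of 4 groups, from 1.0 µg of RNA with a RIN of at least 8, per the labels' protocols. The authors deposited 1 table of 18530 genes on mm10, named as raw counts, which holds TPM, since the columns contain fractions and each adds up to 1000000. Per the file headers, the table also holds the authors' deposited log2 fold changes, average log2 CPM, likelihood ratio score, p-value and false discovery rate for pairs of groups. Set against the TPM, these fold changes run from the group named first to the one named second, so their sign was turned (Pearson r across genes with the differences here 0.92). The submitters' processing notes name edgeR, without a version; the aligner and read counter were not given in the sources used here.

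Whole reads were recovered from the steps of the deposited TPM within a tolerance of 0.1 reads (100% of values, 7234100 to 25458194 reads per library) and given to limma-voom as an alternative; it called 0 genes. For the main values each library's TPM were scaled by a trimmed-mean factor (0.827 to 1.28) and put on log2(TPM + 1). The 12 libraries entered a group-means model in limma 3.58.1 (R 4.3.3) with trend and robust moderation and 8 residual degrees of freedom, with Benjamini-Hochberg adjustment over 12798 genes and a threshold of 0.05. The fit was tested on simulated data. Contrasts were genotype under PB1046, genotype under saline and their difference. A list level is the mean over members of log2 values centred on the gene's mean of all libraries; lists were described by counts and medians and not tested.

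Named genes are Utrn and Dmd; per direction the 12 smallest unadjusted p among non-overlapping genes and the 6 largest differences with unadjusted p under 0.05 and a mean of at least 5 TPM; in each list the 4 members of smallest p; 4 genes near Utrn; and 5 per direction for the difference between treatments, leaving out predicted genes. A subset of these, and Nppa and Stard10 from outside the rule, was chosen for the text after values were seen. The members and lists were chosen with earlier results of these data known. Of 49 lists, those for which no value is printed are not discussed. Sequences are from RefSeq promoter windows.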

Additional observations from a re-analysis of the deposited data

How the results depend on the processing

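Under 19 alternatives 0 genes passed for genotype under PB1046, and 0 passed under saline in alternatives added after seeing the data; for the difference between treatments 1 gene passed without mdx:Utrn+/- saline replicate 3 (0 to 1 over libraries left out). The number of genes at unadjusted p under 0.05 (214) was 138 with a minimum of 5 TPM, 427 with the endothelial score as a term, 458 with no filter, 368 with no scaling factors, 351 with a term for the 3 lowest library numbers and 106 to 1026 over libraries left out. With the replicate block it was 324, and no gene passed. Deviations of same-numbered libraries correlated at 0.45, 0.39 and -0.19, against -0.67 to 0.46 for differently numbered ones. The same number gave the highest value for mdx replicates 1 and 2 but not 3, so these correlations cannot decide whether replicate numbers pair the libraries. The 3 lowest library numbers are consecutive and belong to replicate 1 of mdx PB1046, mdx:Utrn+/- PB1046 and mdx:Utrn+/- saline. Whether these shared a batch was not tested. Utrn kept its sign throughout, from -0.96 to -0.45 over libraries left out. Dmd was 0.06 with length and abundance trends removed and 0.05 without mdx replicate 1, Myl2 -0.10 with those trends removed, and Eif2s3y 0.00 without scaling factors. Stard10 was -0.06 with those trends removed, -0.13 without scaling factors and -0.06 to 0.25 over libraries left out. Without scaling factors, which put the median of all genes at -0.20, medians were -0.33 for Utrn regulators, -0.17 for genes near Utrn, -0.28 for cAMP-PKA-CREB components, -0.43 for clock, -0.14 for calcium handling, -0.48 for cell cycle genes and 0.07 for skeletal muscle markers, which stood at 0.03 with no filter. With log2 Rn45s as a term genes near Utrn had a median of -0.03, NF-kB targets -0.21, cardiac stress genes 0.23, the proteasome 0.12, the tricarboxylic acid cycle 0.05, the fibrillar matrix -0.27, pericyte and smooth muscle markers -0.27 and cAMP-PKA-CREB components -0.01, and Adcyap1r1 was 0.08. Over libraries left out, medians ran from -0.04 to 0.11 for genes near Utrn, -0.72 to -0.25 for NF-kB targets, -0.86 to -0.21 for glucocorticoid-responsive genes, 0.02 to 0.26 for calcium handling, -0.02 to 0.33 for the dystrophin complex, -0.22 to -0.10 for Utrn regulators, 0.00 to 0.48 for the tricarboxylic acid cycle, 0.05 to 0.46 for fatty acid oxidation, 0.12 to 0.49 for glycolysis, 0.31 to 0.69 for oxidative phosphorylation, 0.10 to 0.56 for the sarcomere, 0.11 to 0.42 for the proteasome, 0.26 to 0.68 for cardiac stress genes, -0.82 to -0.40 for the fibrillar matrix, -0.64 to 0.37 for endothelial markers, -0.54 to 0.07 for interferon genes and 0.02 to 0.41 for ion channels; the cause was not tested. With 3 libraries a group, the median half-width of the unadjusted 95% interval was 0.56 on the log2 scale. Smaller differences were not detectable for most genes, and after adjustment no gene passed at any size of difference.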

Other observations

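Interferon-stimulated genes and blood-cell transcripts overlapped between genotypes. Of 28 interferon response genes 24 were lower in mdx:Utrn+/- (median log2 difference -0.15), but without mdx:Utrn+/- replicate 1 the count was 18 higher (0.07), without mdx replicate 2 it was 15 higher (0.01), and without mdx replicate 1 it was 27 lower (-0.54). Their mean centred level was -0.56, 0.49 and 0.45 in mdx replicates 1 to 3 and -0.57, 0.49 and -0.17 in mdx:Utrn+/- replicates 1 to 3. Isg15, a ubiquitin-like interferon product, had a log2 difference of -0.63 and lay between 15.4 and 31.6 scaled TPM in mdx, with a lowest value of 12.6 in mdx:Utrn+/-. The summed level of 8 erythroid markers was 153, 58.1 and 859 scaled TPM in mdx and 164, 669 and 75.1 in mdx:Utrn+/-, and that of 6 platelet markers was 23.2, 44.3 and 116 against 16.2, 279 and 19.5. In both lists mdx replicate 3 and mdx:Utrn+/- replicate 2 stood highest.

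Of 26 ion channel genes 19 were higher in mdx:Utrn+/- (median 0.16), but 13 were higher and 13 lower without mdx replicate 2 (median 0.02), and the median was 0.05 without mdx replicate 3. Hcn2, a pacemaker channel, was 11.8, 8.17 and 6.87 scaled TPM in mdx against 10.8, 10.5 and 15.9 in mdx:Utrn+/- (log2 0.44), and the groups overlapped. No interferon or ion channel gene passed the test (limma, adjusted p 1.00).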
